A study of Mus musculus with 15 samples.

Results

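The genes examined were 8 transcription factors of the sympathoadrenal lineage, the branch of the neural crest that gives rise to sympathetic neurons and adrenal chromaffin cells: *Phox2a*, *Hand2*, *Gata2*, *Gata3*, *Isl1*, *Insm1*, *Tbx2* and *Sox11*. They were chosen by name as factors of the adrenergic neuroblast identity. All 8 were among the 23329 genes with counts, and all 8 were among the 14880 genes that passed a filter of more than 1 CPM (reads of a gene scaled to a common library size) in at least 3 tumors. Each was above 1 CPM in all 8 neuroblastomas, and of the 7 lymphomas *Tbx2* was above it in 7, *Insm1* in 5, *Gata2* in 4, *Isl1* in 3, *Gata3* and *Sox11* in 1 each and *Phox2a* and *Hand2* in 0.

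RNA was sequenced from 15 mouse tumors, each from a different mouse and with 1 library per tumor. The neuroblastomas were 4 *Th-MYCN* tumors, with a *MYCN* transgene driven by the tyrosine hydroxylase promoter and intact *Casp2*, and 4 *Th-MYCN/Casp2*-/- tumors that also lacked caspase-2. They came from Sv129/C57BL6 mice, were paraspinal thoracic masses chosen for little or no blood supply, with onset between 10 and 21 weeks of age for the 4 controls and between 15 and 24 weeks for the deficient mice. The lymphomas were 4 *EμMyc* tumors, with a *Myc* transgene driven by the immunoglobulin heavy chain enhancer and intact *Casp2*, and 3 *EμMyc/Casp2*-/- tumors, taken from cervical lymph nodes of C57BL/6 mice with onset between 13 and 19 weeks and between 8 and 12 weeks, respectively. A further *EμMyc/Casp2*-/- tumor, set aside by the authors, was not analysed here. Every tumor thus carried a *Myc* family transgene, the caspase-2 loss was present in the whole animal, and tumor type cannot be told apart from strain and tissue, nor genotype from onset in the lymphomas, whose onsets do not overlap.

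Sympathoadrenal identity is held by a circuit of transcription factors that bind one another's genes and those for making, storing and releasing noradrenaline. *Phox2a* encodes a paired-like homeodomain protein, *Isl1* a LIM homeodomain protein, *Hand2* a basic helix-loop-helix protein, *Gata2* and *Gata3* zinc finger proteins that bind GATA motifs, *Insm1* a zinc finger repressor of neuroendocrine progenitors, *Tbx2* a T-box repressor and *Sox11* an HMG-box factor of immature neurons. In neuroblastoma the same circuit marks the adrenergic cell state, as opposed to a mesenchymal one. Outside this lineage, *Gata2* is also known from blood progenitors, mast cells and endothelium, and *Gata3* from T cells.

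Library depth was 4940464 to 17638029 reads per tumor in the gene counts used, and 1 CPM therefore stands for about 5 to 18 reads. The shallowest library was *EμMyc/Casp2*-/- replicate 1. The tissue labels held against their markers: the 10 neuroblast markers summed to 8764 CPM or more in every neuroblastoma and to at most 74.0 CPM in the lymphomas, and the 8 B cell markers to 2059.6 CPM or more in every lymphoma and at most 23.0 CPM in the neuroblastomas. Mean *Casp2* went from 100.3 ± 20.9 to 58.0 ± 16.7 CPM (SD, 4 tumors each) with the knockout in the neuroblastomas, where it was not called (LRT FDR 0.102 by edgeR), and from 159 ± 34.2 to 62.0 ± 12.6 CPM (SD, 4 and 3 tumors) in the lymphomas (LRT FDR 3.99e-04). Reads of the gene thus remained in the tumors labelled *Casp2*-/-, and counts per gene do not tell which exons they came from. In bulk tumors, fewer cells of a type and less RNA per cell cannot be told apart.

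The promoter sequences of 4 members are shown as background, and no expression result below was derived from them. *Gata2* was the member that differed between the neuroblastoma genotypes, *Gata3* is its closest relative among the members, and *Hand2* and *Isl1* hold GATA motifs near their start sites. The windows run from 250 bases before to 50 bases after the start site, from RefSeq on GRCm38.p6, written 5′ to 3′ on the gene's strand, and 6 of the 8 members had an entry. Capitals mark any of 4 motifs on either strand: the E-box CACGTG bound by Myc family proteins, the GATA hexamers AGATAA and its variant TGATAA, the homeobox core TAATTA, and the E-box CATCTG, known from other helix-loop-helix proteins.
Gata2, distal start, chr6:88193641-88193940, + strand: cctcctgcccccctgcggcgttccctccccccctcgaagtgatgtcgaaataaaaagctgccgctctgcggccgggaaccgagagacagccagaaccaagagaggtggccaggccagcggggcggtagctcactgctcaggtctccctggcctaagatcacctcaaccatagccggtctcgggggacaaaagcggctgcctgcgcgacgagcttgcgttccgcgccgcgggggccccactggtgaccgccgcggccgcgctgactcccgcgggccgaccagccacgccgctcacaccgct
Gata2, proximal start, chr6:88198414-88198713, + strand: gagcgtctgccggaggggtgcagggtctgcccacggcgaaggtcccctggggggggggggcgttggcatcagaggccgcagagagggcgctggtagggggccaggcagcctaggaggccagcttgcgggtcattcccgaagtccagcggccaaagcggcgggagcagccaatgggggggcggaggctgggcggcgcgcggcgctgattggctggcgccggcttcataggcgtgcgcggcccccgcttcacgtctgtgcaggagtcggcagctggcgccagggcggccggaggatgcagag
Gata3, chr2:9878551-9878850, - strand: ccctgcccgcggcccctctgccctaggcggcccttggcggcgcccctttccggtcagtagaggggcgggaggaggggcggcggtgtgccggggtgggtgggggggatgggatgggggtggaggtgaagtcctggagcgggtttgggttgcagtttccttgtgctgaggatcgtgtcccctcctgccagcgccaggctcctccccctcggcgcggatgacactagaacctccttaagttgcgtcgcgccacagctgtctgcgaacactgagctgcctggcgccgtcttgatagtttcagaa
Hand2, chr8:57320733-57321032, + strand: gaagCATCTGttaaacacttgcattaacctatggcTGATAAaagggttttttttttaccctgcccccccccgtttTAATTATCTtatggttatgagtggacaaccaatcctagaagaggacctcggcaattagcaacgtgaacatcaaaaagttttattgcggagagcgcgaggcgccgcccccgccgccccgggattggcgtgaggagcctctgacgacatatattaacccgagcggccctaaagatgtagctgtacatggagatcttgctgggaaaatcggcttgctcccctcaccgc
Isl1, chr13:116309639-116309938, - strand: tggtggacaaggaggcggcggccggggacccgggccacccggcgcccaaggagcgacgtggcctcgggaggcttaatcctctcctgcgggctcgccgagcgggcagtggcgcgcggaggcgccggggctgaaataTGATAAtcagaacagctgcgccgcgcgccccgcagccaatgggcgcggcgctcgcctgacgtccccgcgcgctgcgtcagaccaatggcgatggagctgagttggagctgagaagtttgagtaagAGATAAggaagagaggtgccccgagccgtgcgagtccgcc

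Neither *Gata2* window nor the *Gata3* window held any of the 4 motifs. The *Hand2* window held 2 GATA hexamers, of which the nearer one, at -172 from the start site, overlaps a TAATTA homeobox core at -175, and a CATCTG E-box at -246. The *Isl1* window held 2 GATA hexamers, at -115 and at 11. The *Sox11* window held 1 GATA hexamer, and the *Phox2a* window none of the motifs. Over all 32851 windows of the same length, 18.6% held a GATA hexamer of these forms, 17.2% the CATCTG E-box, 7.15% the CACGTG E-box bound by Myc family proteins and 5.29% the TAATTA core, and 0 of the 7 member windows held CACGTG. A match here is a stretch of letters, not a bound site. *Insm1* and *Tbx2* had no entry.

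All 8 factors were abundant in the neuroblastomas. Per kilobase of exon, which allows genes to be compared, *Hand2* was highest with a mean of 314 CPM per kb over the 8 neuroblastomas, followed by *Isl1* at 299, *Phox2a* at 142, *Insm1* at 84.3, *Tbx2* at 70.5, *Gata3* at 63.0, *Gata2* at 50.4 and *Sox11* at 45.8. The ranges of *Hand2*, at 225 to 449 CPM per kb, and *Isl1*, at 235.3 to 404, overlapped almost fully, so their order is not resolved. Every neighbour further down the order also overlapped the next in range. On the CPM scale, each member's mean lay above at least 92.2% of the tested genes in these tumors, with *Gata2* the lowest placed and *Isl1* the highest, above 99.4%.

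**Figure D1:**
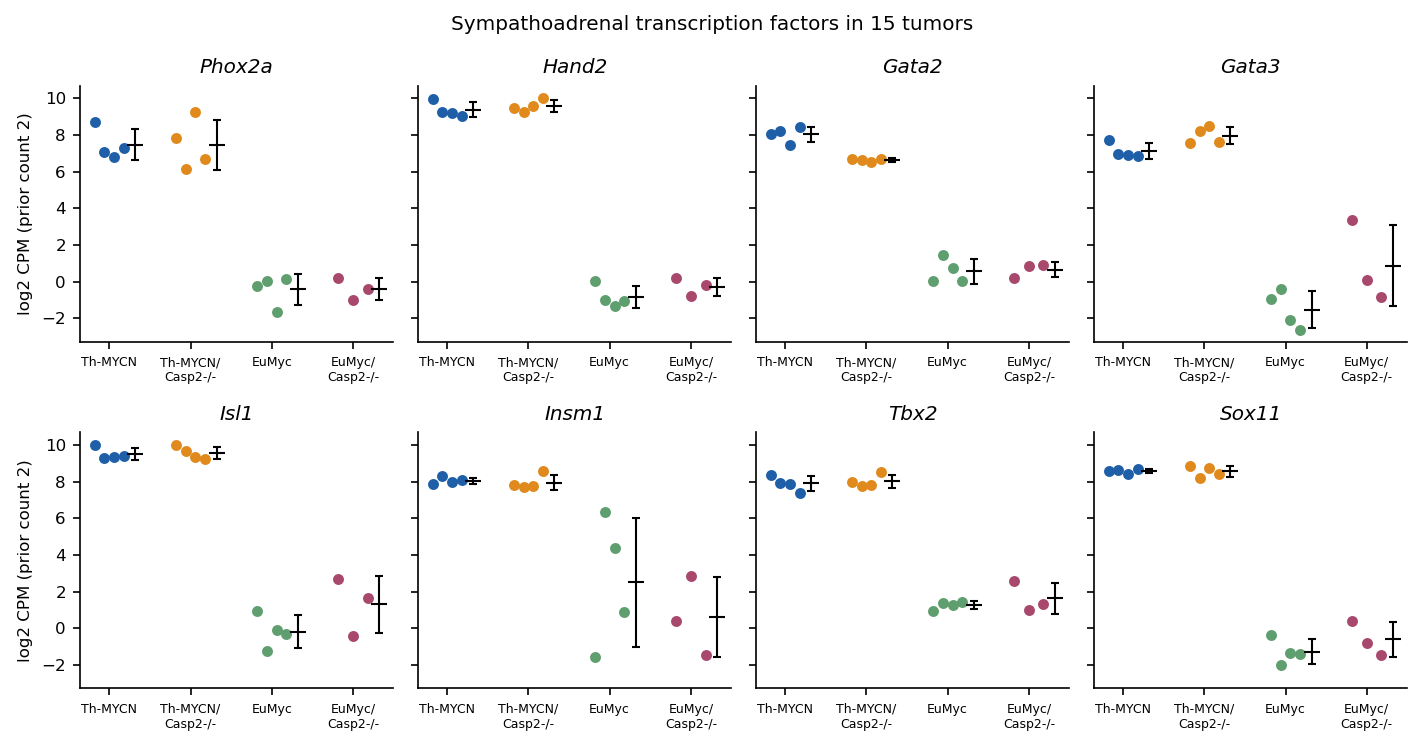
Level of each of the 8 transcription factors in the 15 tumors, as log2 CPM with a prior count of 2, with 1 point per tumor and the mean ± SD of each group as a black bar. All 8 neuroblastomas lie above all 7 lymphomas in each panel, *Gata2* is lower in the 4 *Th-MYCN/Casp2*-/- than in the 4 *Th-MYCN* tumors, and *Insm1* spreads widely among the lymphomas.

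The members differed in how much they varied between tumors. Across the 8 neuroblastomas, *Sox11* was the steadiest, at 296 to 456 CPM with a coefficient of variation of 14.1%, and *Phox2a* the most variable, at 70.8 to 608 CPM with 82.3%. Among the 2818 genes that averaged at least 100 CPM in these tumors, the median coefficient of variation was 16.6%, and *Phox2a* lay above 99.5% of them, *Gata2* above 98.5% and *Gata3* above 97.1%. The other members were nearer the middle, with *Hand2* above 87.8%, *Tbx2* above 86.1%, *Isl1* above 78.2%, *Insm1* above 76.4% and *Sox11* above 34.1%. These percentiles include the difference between genotypes.

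The comparison of *Th-MYCN/Casp2*-/- with *Th-MYCN* neuroblastomas asked whether loss of caspase-2 goes with a change in the factors of tumor identity. A differentially expressed gene (DEG) was one with an FDR under 0.05 by the likelihood ratio test (LRT) of edgeR together with a change of more than 2-fold, and the FDR of edgeR's stricter quasi-likelihood test (QLF) is given beside it. *Gata2* fell and was the only member called, 1 of 8, against 0.813% of all tested genes called in either direction and 0.625% called as lower. By QLF no member was called, against 0.0336% of all genes, although *Gata2* had an unadjusted p under 0.05 by both tests, as did 7.78% of all genes by the LRT and 6.77% by QLF. The median log2 fold change over the 8 members was 0.08, against -0.0024 over all tested genes, and 6 of the 8 had a fold change above 0.

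*Gata2* stood at 266, 299, 175.7 and 343 CPM in the *Th-MYCN* tumors and at 103, 101, 90.8 and 105 CPM in the *Th-MYCN/Casp2*-/- tumors. Every caspase-2 deficient tumor was below every control, and the deficient tumors sat close together while the controls were spread widely. The log2 fold change was -1.44 (SE 0.25), a 2.71-fold decrease, with an FDR of 4.96e-05 by edgeR's LRT and 0.0812 by edgeR's QLF. Groups that did not overlap, with the deficient tumors below, made up 3.68% of the tested genes.

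The *Gata2* call held by the LRT when any of the 8 neuroblastomas was left out, with a log2 fold change between -1.60 and -1.31. It also held with sex as a covariate, at -1.31, and by DESeq2, at -1.43 with an adjusted p of 3.24e-05. The gene lies on chromosome 6 at 88193891-88207032, + strand (GRCm38), with no other annotated gene overlapping it. Its reads were split evenly over the strands, with 50.4% of them on the strand that was counted. The counts sum over both start sites shown above and cannot tell which was used.

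Since *Gata2* is also a gene of endothelium and mast cells, markers of these cells were read beside it. Of 8 endothelial markers, 7 had a negative log2 fold change in the deficient tumors and 2 were called as lower by the LRT, against 0.625% of all tested genes. The called genes were the junction gene *Pecam1* at -1.20 (SE 0.24, LRT FDR 5.52e-04, QLF FDR 0.0812) and the VEGF receptor gene *Kdr* at -1.46 (SE 0.38, LRT FDR 0.0308, QLF FDR 0.220). With each of the 8 neuroblastomas left out in turn, *Pecam1* was called in 8 of 8 fits and *Kdr* in 1, the fit without *Th-MYCN* replicate 1, with an LRT FDR of 0.0697 to 0.175 in the other 7. The 8 endothelial markers summed to 69.2 to 109 CPM in *Th-MYCN* and 36.7 to 56.5 CPM in *Th-MYCN/Casp2*-/- tumors. This sum and *Gata2* were thus both lower in every deficient tumor than in every control. Among the controls the tumor with the most *Gata2*, replicate 4, had the lowest sum. Among the deficient tumors the tumor with the most *Gata2*, also replicate 4, had the highest sum. The part of these markers in the *Gata2* difference was not tested. In the lymphomas, another tissue, the same markers summed to 162 to 319 CPM and *Gata2* was at most 2.57 CPM. There *Pecam1* alone averaged 116 CPM of a mean sum of 231 CPM in *EμMyc* lymphomas. In *EμMyc/Casp2*-/- lymphomas it averaged 135 CPM of 258 CPM. The source of the *Gata2* reads was not tested in either tumor type, and the levels in the lymphomas do not tell it for the neuroblastomas. Of the 8 mast cell and basophil markers, *Fcer1a*, *Mcpt8* and *Ms4a2* had 0 reads in all 8 neuroblastomas and *Cpa3*, *Mcpt4* and *Tpsb2* at most 3 reads in any, and the summed level of 32.6 to 42.7 CPM in *Th-MYCN* and 11.1 to 41.0 CPM in *Th-MYCN/Casp2*-/- tumors was almost all *Kit*. Of the 5 erythroid markers, which summed to 2.60 to 7.73 CPM in the neuroblastomas, none was called.

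*Gata3*, the second GATA factor, was measured at 215.5, 124, 119 and 116 CPM in the *Th-MYCN* tumors and at 189, 296, 366 and 194 CPM in the *Th-MYCN/Casp2*-/- tumors. The other 3 controls lay below every deficient tumor, and *Th-MYCN* replicate 1 alone made the groups overlap. The log2 fold change of 0.86 (SE 0.68) was not called, with an FDR of 0.954 by edgeR's LRT and 0.904 by QLF. Fitted on the 8 neuroblastomas alone, it was 0.86 with an LRT FDR of 0.0957.

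The relation of both GATA genes was examined after these values had been seen. *Gata2* was 1.24, 2.41, 1.47 and 2.95 times *Gata3* in CPM in the *Th-MYCN* tumors and 0.545, 0.341, 0.248 and 0.541 times in the *Th-MYCN/Casp2*-/- tumors. The ratio was therefore above 1 in every control and below 1 in every deficient tumor, and no test was made of it because it was picked for this pattern. The sum of both genes was 295 to 482 CPM in the controls and 292 to 457 CPM in the deficient tumors, which overlapped almost completely.

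**Figure D2:**
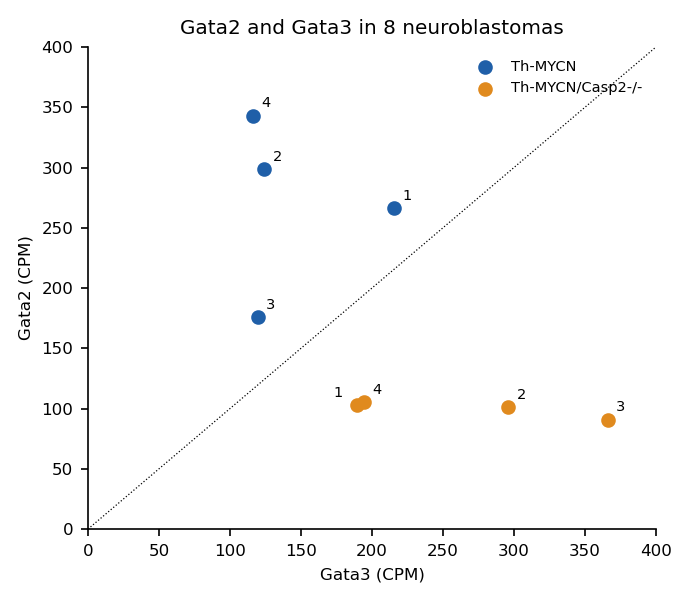
*Gata2* against *Gata3* in the 8 neuroblastomas, both in CPM, with 1 point per tumor, replicate numbers beside the points and a dotted line where both are equal. The 4 *Th-MYCN* tumors lie above the line, with ratios of 1.24 to 2.95, and the 4 *Th-MYCN/Casp2*-/- tumors lie below it, with ratios of 0.248 to 0.545.

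*Phox2a* varied more within each genotype than between them. It was at 422, 135, 113 and 154 CPM in *Th-MYCN* and at 226, 70.8, 608 and 104 CPM in *Th-MYCN/Casp2*-/- tumors. One tumor of each genotype stood far above the rest, and the log2 fold change of 0.29 (SE 0.61) had an LRT and QLF FDR of 1.0 and turned to -0.05 with sex as a covariate. The last 95 bases of *Phox2a*, on chromosome 7 at 101818313-101822726 on the + strand, overlap *Inppl1* on the other strand, and the libraries do not mark strand. Counts of either strand, from which reads shared by 2 genes are left out, held 90.4% to 96.1% of the sum of both strand counts of *Phox2a* in the neuroblastomas, and gave a log2 fold change of 0.31. *Inppl1* itself, an inositol phosphatase gene, fell by 1.65 on the log2 scale (SE 0.43, LRT FDR 0.0319, QLF FDR 0.256), a call made in 2 of 8 fits that each left out a neuroblastoma, those without *Th-MYCN* replicate 1 and without *Th-MYCN/Casp2*-/- replicate 3, with an LRT FDR of 0.0937 to 0.190 in the other 6.

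*Hand2* and *Isl1*, the most abundant members per length, differed little. *Hand2* was at 1000.1, 619, 593 and 530.0 CPM in *Th-MYCN* and at 721, 606, 771 and 1056 CPM in *Th-MYCN/Casp2*-/- tumors, with a log2 fold change of 0.20 (SE 0.27). *Isl1* was at 1015, 619.8, 645 and 679 CPM against 1004, 803, 656 and 592 CPM, with a log2 fold change of 0.05 (SE 0.46). In both genes the genotypes overlapped over most of their range. Their LRT FDR was 1.0, and so was that of the 3 members that follow. *Hand2* lies on chromosome 8 at 57320983-57324633, and the antisense gene *Hand2os1*, which overlaps it over 3251 bases, has no row in the count table, so its reads cannot be told apart from those of *Hand2* without strand.

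*Insm1*, *Tbx2* and *Sox11* overlapped between the genotypes as well. *Insm1* ranged from 236 to 311 CPM in *Th-MYCN* and from 207 to 377 CPM in *Th-MYCN/Casp2*-/- tumors, with a log2 fold change of -0.07 (SE 1.02). *Tbx2* ranged from 168 to 328 and from 214.7 to 374 CPM, at 0.12 (SE 0.29), and *Sox11* from 341 to 407 and from 296 to 456 CPM, at 0.01 (SE 0.21). For *Sox11* the approximate 95% interval of the log2 fold change was -0.40 to 0.42, and for *Insm1* it was -2.08 to 1.94, so a change of more than 2-fold lay inside the interval of *Insm1* and outside that of *Sox11*. The spread of each gene was estimated over all 15 tumors, which include the lymphomas, where *Insm1* was uneven.

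**Figure D3:**
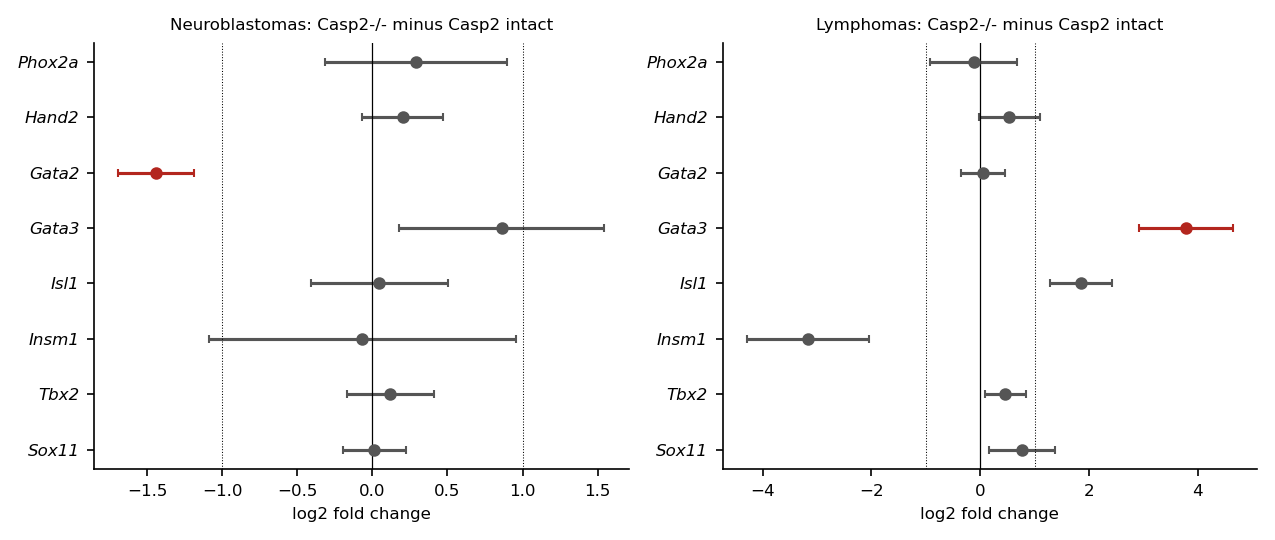
Log2 fold change of the 8 members between *Casp2*-/- tumors and tumors with intact *Casp2*, in neuroblastomas (left) and lymphomas (right), with points for the fitted value, bars for ± SE and red for DEGs by the LRT. In the neuroblastomas *Gata2* at -1.44 is the only member past the dotted 2-fold line, and in the lymphomas *Gata3* at 3.78 is the only DEG.

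Genes that work beside the members were read from lists. Of 19 tested genes in a list of 20 further adrenergic identity factors, 1 was called as higher by the LRT in *Th-MYCN/Casp2*-/- tumors and 0 as lower, against 0.813% of all tested genes in either direction. The list's median log2 fold change was 0.27. The called gene was *Tfap2a*, an AP-2 factor of the neural crest, at 5.19 (SE 1.16, LRT FDR 0.0247, QLF FDR 0.262), with at most 0.693 CPM in any control and 0.514 to 47.8 CPM in the deficient tumors, which overlapped. Of its 694 reads in the deficient tumors 663 came from 1 tumor, replicate 1, and without it the log2 fold change was 1.30 (LRT FDR 0.944). The call was also lost without *Th-MYCN* replicate 1, 2 or 4, at an LRT FDR of 0.0724, 0.175 and 0.156. *Insm2*, the closest relative of *Insm1*, averaged 469 ± 78.0 CPM in controls and 784 ± 81.9 CPM in deficient tumors (SD, 4 each), a log2 difference of 0.74 (SE 0.19, LRT FDR 0.0221, QLF FDR 0.130) that stayed under 2-fold. Next in the order of FDR were *Six3*, at 4.94 (LRT FDR 0.165), and *Tbx3*, a relative of *Tbx2*, at -1.82 (LRT FDR 0.361).

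The 12 noradrenergic genes, which make, store, carry or sense transmitter or signal in these cells, had a median log2 fold change of -1.08, against -0.0024 over all tested genes. By the LRT 2 were called as lower, 1 as higher and 9 did not pass, and 11 of the 12 had a negative fold change. Of all tested genes 0.625% were called as lower and 0.813% in either direction. *Cyb561*, which keeps ascorbate reduced in the transmitter vesicles, was at -2.22 (SE 0.37, LRT FDR 3.06e-05, QLF FDR 0.0532). *Gch1*, which makes the cofactor of tyrosine hydroxylase, was at -1.99 (SE 0.34, LRT FDR 3.06e-05, QLF FDR 0.0532). *Slc18a1*, a vesicular monoamine transporter, went the other way at 1.71 (SE 0.38, LRT FDR 0.00392, QLF FDR 0.174). The *Cyb561* and *Gch1* calls held without each neuroblastoma in turn, whereas that of *Slc18a1* was lost without *Th-MYCN* replicate 4 (LRT FDR 0.0696) and without *Th-MYCN/Casp2*-/- replicate 2 (LRT FDR 0.0543).

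The gene for tyrosine hydroxylase, *Th*, had a log2 difference of -2.55 (SE 0.69) with an LRT FDR of 0.0547, just outside the threshold, and its promoter is also the one that drives the *MYCN* transgene. Its level was 314 to 1447 CPM in *Th-MYCN* and 75.9 to 246 CPM in *Th-MYCN/Casp2*-/- tumors, which did not overlap. Summed over the list, noradrenergic genes reached 4105, 4245, 3853 and 4281 CPM in the controls and 2236, 1529, 2031 and 2173 CPM in the deficient tumors. *Gata2* and this sum were thus both lower in all 4 deficient tumors, as was the sum of the endothelial markers. A link between any of them was not tested. *Mycn*, which is in the adrenergic list, had a log2 difference of -0.25 (SE 0.29, LRT FDR 1.0).

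**Figure D4:**
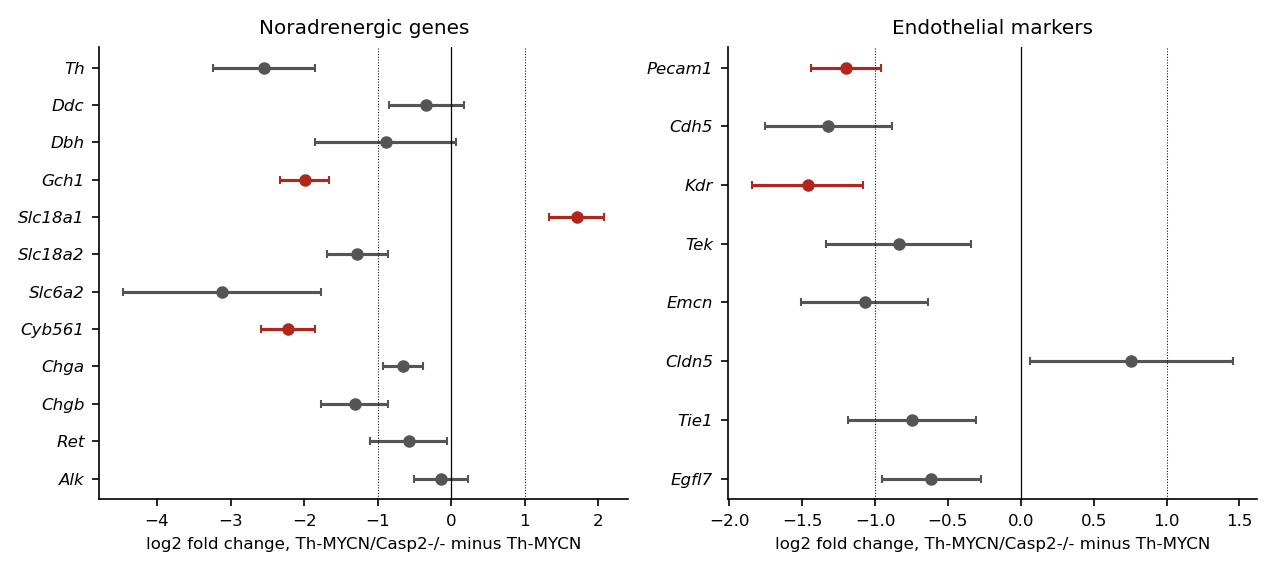
Log2 fold change of the 12 noradrenergic genes (left) and the 8 endothelial markers (right) in *Th-MYCN/Casp2*-/- against *Th-MYCN* neuroblastomas, with points for the fitted value, bars for ± SE and red for DEGs by the LRT. Fold changes are below 0 for 11 of the 12 and 7 of the 8 genes, and the exceptions are *Slc18a1* at 1.71 and *Cldn5*.

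None of the other lists had a member called in the neuroblastomas by the LRT. These were 14 tested binding partners of GATA, LIM and bHLH factors (median log2 fold change -0.15), 3 Id proteins that sequester bHLH partners (-0.61), 16 mesenchymal identity factors (-0.49) and 4 other GATA, T-box and SOX family members (0.46). The smallest LRT FDRs among the partners were 0.618 for *Zfpm2* and 0.818 for *Zfpm1*, the FOG cofactors of GATA proteins. The mesenchymal factors summed to 359 to 1020.4 CPM in *Th-MYCN* and 527 to 1068 CPM in *Th-MYCN/Casp2*-/- tumors. Most of that sum was *Vim*, the gene of an intermediate filament protein, with means of 375 and 677 CPM and a log2 fold change of 0.85 (SE 0.46, LRT FDR 0.723), whereas 11 of the 16 tested factors had a negative fold change. The 7 Schwann cell markers summed to 36.1 to 82.3 and 71.7 to 103 CPM, the 4 chromaffin markers to 350.1 to 480 and 170.3 to 299 CPM, the 10 T cell markers to 22.4 to 72.3 and 32.2 to 50.8 CPM, the myeloid markers to 552 to 827 and 329 to 771 CPM and the 6 adrenal cortex markers to 21.5 to 27.9 and 18.4 to 28.9 CPM, with no gene of these lists called.

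Pairs of members were compared across the 8 neuroblastomas on log2 CPM, 28 pairs in all, by 2-sided exact permutation tests with Benjamini-Hochberg adjustment over the pairs. No pair passed. The closest was *Hand2* with *Tbx2*, with Pearson's r = 0.91 (exact permutation p = 0.00213, adjusted 0.0597) and Spearman's rho = 0.81 (exact p = 0.0218, adjusted 0.261). Without the 2 tumors farthest from the median of *Hand2* r was 0.62, and with each genotype centred on its own mean it was 0.91. The 2 tumors with the most *Hand2*, *Th-MYCN* replicate 1 and *Th-MYCN/Casp2*-/- replicate 4, were also the 2 with the most *Tbx2*.

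*Phox2a* with *Sox11* had r = 0.71 (exact permutation p = 0.0498, adjusted 0.468) and rho = 0.79 (exact p = 0.0279, adjusted 0.261), and r = 0.99 without the 2 tumors farthest from the median of *Phox2a*. For *Gata2* with *Gata3* no pooled correlation is given, because the genotypes form separate clusters. With each genotype centred on its own mean, r was -0.13 over the 8 tumors (exact permutation p = 0.765), so the opposite placing of both genes lay between the genotypes and was not resolved within them.

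The neuroblastomas also differed in the age of onset, and the 8 members were compared with it in the same way. *Gata3* came closest, with r = 0.85 (exact permutation p = 0.00938, adjusted over the 8 members 0.0750) and rho = 0.83 (exact p = 0.0149, adjusted 0.119), and r = 0.79 without the 2 tumors farthest from the median onset. In each genotype the tumor with the latest onset, at 21 and 24 weeks, had the most *Gata3*. Each genotype held 4 tumors, too few for a correlation of its own. The correlations with onset pool both genotypes, and none was centred on the mean of each genotype. Onset ran from 10 to 21 weeks in *Th-MYCN* and from 15 to 24 weeks in *Th-MYCN/Casp2*-/- tumors. *Gata3* had an uncalled log2 fold change of 0.86 in the deficient tumors. The pooled r of *Gata3* therefore does not separate onset from genotype. *Phox2a* had r = 0.71 (exact permutation p = 0.0472, adjusted 0.189), which became -0.26 without the tumors of 21 and 24 weeks and so rested on them. The other members had r between -0.48 for *Insm1* and 0.43 for *Hand2*.

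**Figure D5:**
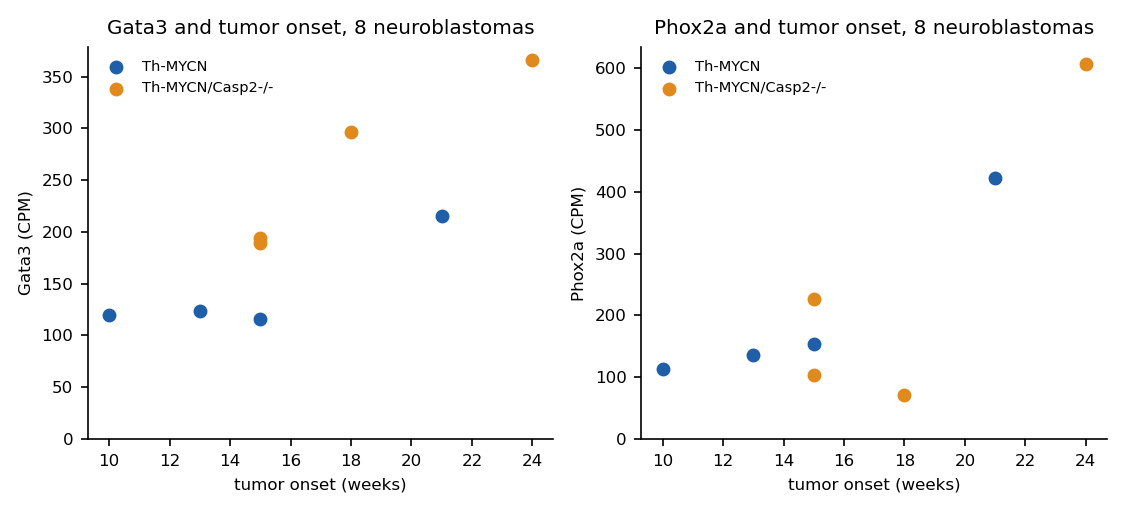
*Gata3* (left) and *Phox2a* (right) in CPM against tumor onset in weeks, with 1 point for each of the 8 neuroblastomas. *Gata3* is highest at 24 weeks with 366 CPM, while *Phox2a* is high at 21 and 24 weeks with 422 and 608 CPM and lowest at 18 weeks with 70.8 CPM.

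By a fixed rule, the genes most like each member in pattern, up to 3 of them, were taken from 11425 candidates of at least 5 mean CPM over the 8 neuroblastomas. For *Gata2* they were *Dusp9* (r = 0.97) and *Pms2* (0.96), for *Gata3* *Clk4* (0.98), *Rusc1* (0.96) and *Ptchd1* (0.95), and for *Hand2* *Smug1* (0.98), *Csf1* (0.96) and *Wbp1* (0.95). For *Phox2a* they were *H3f3b* (0.97), *Hnrnpab* (0.96) and *Snrnp27* (0.96), for *Isl1* *Mat2a*, *Neb* and *Slc16a6* (0.97 each), and for *Insm1* *Incenp*, *Heatr7b1* and *Ddx41* (0.96 each). For *Tbx2* they were *Esyt1* (0.95), *Eya3* (0.95) and *Pop1* (0.94), and for *Sox11* *Cenpq* (0.95), *Snhg5* (0.95) and *Lrp12* (0.94). These are the highest of many values over 8 tumors and are given as a description, and no member was among those named for another. They pool both genotypes, which form separate clusters in *Gata2*, so its matches include any difference between the genotypes.

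In the lymphomas the members were low, with at most 32 reads in any tumor except for *Insm1* and *Gata3*, and 3 reads are worth 0.229 to 0.607 CPM depending on the library, before TMM scaling. The mean over 7 lymphomas was 0.0751% of the mean over 8 neuroblastomas for *Hand2*, 0.110% for *Sox11*, 0.251% for *Isl1*, 0.286% for *Phox2a*, 0.782% for *Gata2*, 0.882% for *Gata3*, 1.07% for *Tbx2* and 6.07% for *Insm1*. The *Phox2a* reads there were in large part shared with *Inppl1*: with shared reads left out, 1 to 9 reads remained in each lymphoma, or 4.55% to 50.0% of the sum of both strand counts. Whether the few reads of the neuronal members came from lymphoma cells was not tested.

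The comparison of *EμMyc/Casp2*-/- with *EμMyc* lymphomas called 1 of the 8 members by the LRT, *Gata3* as higher, against 1.44% of all tested genes in either direction and 1.14% as higher. By QLF it called none, against 0.141%, with 3 members, *Gata3*, *Isl1* and *Insm1*, at an unadjusted p under 0.05 by each test, as were 9.89% of all genes by the LRT and 8.53% by QLF. *Gata3* had 4, 7, 1 and 0 reads in the *EμMyc* lymphomas, and 52, 11 and 4 reads in the *EμMyc/Casp2*-/- lymphomas. Those reads made 0.350, 0.599, 0.0787 and 0 CPM against 10.2, 0.918 and 0.404 CPM, so the groups overlapped and replicate 1 of the deficient lymphomas stood alone. The log2 fold change was 3.78 (SE 0.86) with an FDR of 0.00296 by edgeR's LRT and 0.223 by QLF. Without that tumor it was 1.34, with an LRT FDR of 0.864.

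The same lymphoma also had the highest level of the T cell markers, of which *Gata3* is a classical regulator. The 10 markers summed to 1906 CPM in it, to 338 and 218 CPM in the other *EμMyc/Casp2*-/- lymphomas and to 135 to 225 CPM in the *EμMyc* lymphomas. This shallowest library also had the highest lymphoma sums of myeloid (1556 CPM), mast cell and basophil (17.2 CPM), neuroblast (74.0 CPM) and adrenal cortex markers (18.4 CPM). Its sums of B cell, endothelial, Schwann, chromaffin and erythroid markers were not the highest. It also led the lymphomas in *Phox2a*, *Hand2*, *Isl1*, *Tbx2* and *Sox11*, all at few reads, but not in *Gata2* or *Insm1*. By the LRT 5 of the 10 T cell markers were called as higher in the deficient lymphomas, *Zap70*, *Cd8b1*, *Cd8a*, *Cd4* and *Cd3d*, against 1.14% of all tested genes. By QLF it was 0 of the 10, with a lowest FDR of 0.0554 for *Zap70*. Without this tumor *Zap70* kept its LRT call, at a log2 fold change of 2.58 (FDR 0.00706), and the other 4 lost theirs, with log2 fold changes of 1.08 to 1.53 and an LRT FDR of 0.926 to 1.0. *Cd8b1*, *Cd8a*, *Cd4* and *Cd3d* were each also lost without at least 1 of the *EμMyc* lymphomas, and *Zap70* was called in 7 of 7 fits that each left out a lymphoma. The part of these cells in the *Gata3* reads was not tested, and the *Gata3* call is lost without this tumor.

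*Insm1* was the one member with sizeable counts in some lymphomas. It had 2, 941, 257 and 16 reads in the *EμMyc* lymphomas and 6, 85 and 2 reads in the *EμMyc/Casp2*-/- lymphomas, or 0.175, 80.5, 20.2 and 1.70 CPM against 1.17, 7.09 and 0.202 CPM. *EμMyc* replicate 2 reached a level of 80.5 CPM, beside 207 CPM in the lowest neuroblastoma, while others of its genotype were near 0. The groups overlapped, and the log2 fold change of -3.17 (SE 1.12) had an LRT FDR of 0.248 and a QLF FDR of 0.479. In that tumor *Insm1* was alone among the members, as the others had 1 to 30 reads each. The difference was called by the LRT without *EμMyc* replicate 1, at -3.55 with an FDR of 0.0466, or without *EμMyc/Casp2*-/- replicate 2, at -5.25 with an FDR of 0.0447.

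*Isl1* had 20, 3, 10 and 6 reads in the *EμMyc* and 32, 7 and 29 reads in the *EμMyc/Casp2*-/- lymphomas. Its log2 fold change of 1.84 (SE 0.57) was not called, with an LRT FDR of 0.0654 and a QLF FDR of 0.388, and in counts of either strand it was called by the LRT at 2.20 with an FDR of 0.0488. The groups overlapped, since 1 deficient lymphoma was below 3 of the controls in CPM. It passed without *EμMyc* replicate 1, at 2.47 with an LRT FDR of 0.00871, or without *EμMyc/Casp2*-/- replicate 2, at 2.37 with an LRT FDR of 1.84e-04, and was 1.00 with an LRT FDR of 0.996 without *EμMyc/Casp2*-/- replicate 1. *Gata2*, the member that fell in the neuroblastomas, ranged from 0.849 to 2.57 CPM against 0.977 to 1.72 CPM, with a log2 fold change of 0.05 (SE 0.40). *Phox2a*, *Hand2*, *Tbx2* and *Sox11* had log2 fold changes between -0.12 and 0.76, with LRT FDRs of 0.769 to 0.991. The median over the 8 members was 0.50, against -0.03 over all tested genes.

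Of the neighbouring lists, *Zfp536*, a zinc finger gene among the adrenergic identity factors, was called as higher in the *EμMyc/Casp2*-/- lymphomas by the LRT, with an FDR of 0.00502. It had 0 reads in all *EμMyc* lymphomas and 17 reads in the deficient ones, all in 1 tumor, so that the call is lost without it (LRT FDR 1.0), and it did not pass by QLF, with an FDR of 0.345. No noradrenergic gene, binding partner, Id gene, mesenchymal factor or family member was called.

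Whether the effect of genotype differed between tumor types was tested as an interaction. No member was called by edgeR's LRT or QLF, against 0.914% and 0.0538% of all tested genes, and at an unadjusted p under 0.05 there were 4 by the LRT and 3 by QLF, against 8.96% and 7.57% of all genes. The smallest FDR was that of *Gata2*, with an interaction of 1.49 on the log2 scale (SE 0.47, LRT FDR 0.105, QLF FDR 0.395), as the gene was 2.71-fold lower in the deficient neuroblastomas and 1.04-fold higher in the deficient lymphomas. In counts of either strand the same interaction was 1.69 with an LRT FDR of 0.0340. It also passed without *EμMyc* replicate 2, at 1.91 with an LRT FDR of 0.0125, or without *Th-MYCN* replicate 3, at 1.65 with an LRT FDR of 0.0351. Without *EμMyc/Casp2*-/- replicate 2 the interaction of *Isl1* passed, at 2.32, and without *EμMyc/Casp2*-/- replicate 3 that of *Gata3*, at 3.42.

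The comparison of the tumor types set the members in a neural crest tumor beside a B cell tumor. The members were chosen as neuroblast identity factors, so the direction was largely set by that choice, here and for the deficient tumors below. *Phox2a* and *Hand2* were above 1 CPM in 0 of the 7 lymphomas and *Gata3* and *Sox11* in 1, so these passed the filter only through the neuroblastomas. The counts are therefore a description. All 8 were lower in *EμMyc* than in *Th-MYCN* tumors by both the LRT and QLF, against 28.5% and 27.8% of all tested genes called as lower, and the groups did not overlap for any of them, as for 32.9% of all genes in that direction. The log2 fold changes ran from -3.38 (SE 1.03, LRT FDR 0.00530, QLF FDR 0.0112) for *Insm1* to -10.56 (SE 0.42, LRT FDR 2.01e-128, QLF FDR 3.82e-11) for *Hand2*. Between them lay *Tbx2* at -6.75 (SE 0.32), *Gata2* at -7.52 (SE 0.31), *Phox2a* at -8.27 (SE 0.66), *Gata3* at -9.05 (SE 0.80), *Isl1* at -9.73 (SE 0.51) and *Sox11* at -10.31 (SE 0.45). The median was -8.66, against -0.04 over all tested genes.

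In *EμMyc/Casp2*-/- against *Th-MYCN/Casp2*-/- tumors all 8 were again lower by both tests, against 27.6% of all genes called as lower by the LRT and 26.6% by QLF. The groups did not overlap for any member, as for 31.2% of all genes. The differences ranged from -6.03 (SE 0.36) for *Gata2* to -10.23 (SE 0.45) for *Hand2*, with -6.14 (SE 0.75) for *Gata3*, -6.48 (SE 1.12) for *Insm1* and -9.57 (SE 0.46) for *Sox11*, and a median of -7.21. At these low counts in the lymphomas a fitted fold change depends on the prior count, so the order of the largest is not resolved. *Phox2a* moved from -8.27 to -9.64 between *EμMyc* and *Th-MYCN* tumors when reads shared with *Inppl1* were left out.

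The lists around the members were counted by the LRT between *EμMyc* and *Th-MYCN* tumors, where 28.5% of all tested genes were called as lower. The adrenergic and noradrenergic lists were likewise chosen for the neuroblast lineage, so their direction was largely set by that choice. Of 19 tested adrenergic identity factors 16 were lower and 2 higher in *EμMyc* than in *Th-MYCN* tumors by the LRT, and all 12 noradrenergic genes were lower, with a median of -7.24. The binding partners were even, with 4 higher and 4 lower of 14, and *Id3* was the 1 of 3 Id genes called, as higher. Of 16 mesenchymal factors 6 were higher and 1 lower. The share of all tested genes called as higher is not given here, so the counts of higher genes have no background beside them.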

How the data were processed

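Poly(A)+ RNA from 15 tumors was sequenced by the authors as single-end 50-base reads on a HiSeq 2000, checked with FastQC and aligned with STAR to mm10/GRCm38, per the labels and the methods of the study. The deposited STAR gene counts were made by the authors with 1 column for either strand and 1 for each strand, and the second strand column was used, as in their own fit. That column held 48.8% to 49.3% of the reads of both strands, so the libraries do not mark strand and each count covers about 1 read in 2. Rows that name no gene were left out of library sizes and tests. Among them, reads in no gene or not assignable to a single gene made up 57.1% to 60.5% of these reads and the gene counts together. The remaining totals were 4940464 to 17638029 reads.

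Genes with more than 1 CPM in at least 3 tumors were kept, TMM factors and dispersions were estimated over the 15 tumors in a model with 4 groups, and groups were compared with the likelihood ratio test of edgeR 4.0.16 in R 4.3.3, a test in the package that the study used, whose tables list likelihood ratios. Calls needed an FDR, adjusted by Benjamini-Hochberg over the 14880 genes, below 0.05 as well as a change above 2-fold, and QLF was run beside it. Groups came from the sample labels, and each replicate was a different mouse. No pair of libraries agreed within sampling noise. Levels are CPM scaled by TMM factors, and the fit was tested on simulated data. Correlations used log2 CPM with a prior count of 2 and exact permutation tests in Python 3.11.15, with ranks from scipy 1.17.1. Alternatives were QLF, DESeq2 1.42.0, RLE scaling, no low-count filter, counts of either strand, a fit of only the groups compared, sex as a covariate and leaving out each tumor. QLF with counts of either strand, and leaving out each tumor for called genes of the lists, were added after the data were seen.

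The members and the gene lists were chosen with earlier results of these data known. Named genes were the 8 members, up to 3 genes most like each in pattern, and, from each list, up to 4 genes with the smallest FDR. A few genes that these rules select are not reported here.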

Additional observations from a re-analysis of the deposited data

Results flagged for a closer look

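In 5 of the 24 sets of 4 tumors examined, 3 groups for each of the 8 members, a single tumor stood apart from the other 3 of its group by Dixon's criterion, which chance exceeds in about 1 of 20 sets. Over all tested genes the share with such a tumor was 10.4% in *EμMyc*, 8.24% in *Th-MYCN* and 7.14% in *Th-MYCN/Casp2*-/- tumors. *Th-MYCN* replicate 1 stood apart for 3 members: *Phox2a* at 422 CPM beside 113 to 154 CPM in the others, *Gata3* at 215.5 CPM beside 116 to 124 CPM, and *Isl1* at 1015 CPM beside 619.8 to 679 CPM. In that tumor 3.39% of all tested genes stood apart as high. *Insm1* was at 377 CPM in *Th-MYCN/Casp2*-/- replicate 4 beside 207 to 223 CPM, in a tumor where 1.35% of all genes stood apart as high. *Hand2* was at 0.875 CPM in *EμMyc* replicate 1 beside 0.236 to 0.342 CPM, and 2.06% of all genes were high in that tumor. Leaving out *Th-MYCN* replicate 1 gave a log2 fold change between the neuroblastoma genotypes of 0.92 for *Phox2a* and 0.25 for *Isl1*.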

How the results depend on the processing

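No paired analysis was possible because the labels name the tumors by mouse and give the groups no shared replicate numbers. In the neuroblastomas the 1 member called by the LRT, *Gata2*, kept its call under DESeq2, RLE scaling, no filter, counts of either strand, the fit of only these groups, sex and each left-out tumor, while QLF and QLF with counts of either strand called 0. In the lymphomas the 1 call became 0 with QLF, only the groups compared, sex as a covariate or QLF with counts of either strand, became 2 with counts of either strand, and ranged from 0 to 3 over left-out tumors. The interaction had 0 calls, 1 with counts of either strand, and 0 to 1 over left-out tumors. The tumor type comparisons kept 8 of 8 calls under every alternative run except DESeq2, where 7 were called and *Insm1* had no adjusted p. The cause of these changes was not tested, except that *Gata3* was filtered out when only the lymphomas were fitted.

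With sex as a covariate small neuroblastoma differences changed sign, to -0.049 for *Phox2a*, -0.15 for *Isl1*, 0.059 for *Insm1* and -0.023 for *Sox11*. Over left-out tumors the neuroblastoma log2 fold change ran from -0.61 to 0.92 for *Phox2a*, -0.10 to 0.25 for *Isl1*, -0.30 to 0.03 for *Insm1*, -0.074 to 0.30 for *Tbx2* and -0.075 to 0.13 for *Sox11*. In the lymphomas it ran from -0.49 to 0.23 for *Phox2a*, -0.11 to 0.48 for *Gata2* and -0.11 to 0.80 for *Tbx2*, and the interaction from -1.05 to 0.47 for *Phox2a* and -0.23 to 0.68 for *Tbx2*. None of these was called. The correlation of *Phox2a* with onset became -0.26 without the 2 tumors farthest from the median.

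In the lymphomas every member but *Insm1* and *Gata3* had at most 32 reads in any tumor.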
